A study of Mus musculus with 7 samples.

Results

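The 10 genes described here encode transglutaminases and other proteins of cornification, the last step of keratinocyte differentiation: *Tgm1*, *Tgm2*, *Tgm3*, *Tgm5*, *Casp14*, *Asprv1*, *Cst6*, *Cdsn*, *Ppl* and *Evpl*. They were taken by gene name from the expression tables of 7 mouse skin papillomas, out of 23122 gene symbols that gave a value in every papilloma. All 10 had 1 entry per table with an estimate marked as usable, and all 10 passed the minimum mean of 0.5 FPKM (fragments per kilobase of transcript, scaled to the mapped reads of the library) that left 12299 genes for testing. That mean was taken over all 7 papillomas. *Tgm2*, with means of 0.429 FPKM in CTR and 3.86 FPKM in TG, passed only through its TG values.

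The 4 control papillomas (CTR 1 to CTR 4) came from different mice with the tetO-Nanog transgene and no transactivator, and the 3 transgenic papillomas (TG 1 to TG 3) from different mice with both K5-rtTA and tetO-Nanog. All mice were C57Bl/6 adults, age-matched when the protocol began, and all drank doxycycline (DOX) at 2 mg/ml throughout the DMBA/TPA protocol, in which a topical mutagen, DMBA, is followed by repeated application of the tumor promoter TPA. Papillomas were taken when the protocol finished or when a mouse reached its humane endpoint. Which applied to each papilloma is not given in the sources used here, so age and exposure at collection may differ. The tetO-Nanog cassette sits downstream of *Col1a1*, and the transactivator of TG mice is driven by a bovine keratin 5 promoter, which is active in basal cells of stratified epithelia. CTR mice thus share the cassette and the DOX, and no group without either was analysed here.

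In the upper epidermis, transglutaminases join proteins by isopeptide bonds into the cornified envelope, a sheath that replaces the plasma membrane of dead corneocytes. TGM1, TGM3 and TGM5 are the enzymes known for this in skin, whereas TGM2 is the widely expressed tissue transglutaminase, abundant in connective tissue and endothelium. Periplakin and envoplakin are plakins laid down early under the membrane, corneodesmosin holds corneocytes together, and caspase-14 and the retroviral-like protease ASPRV1 act on the filaggrin precursor. Cystatin M/E, the product of *Cst6*, inhibits legumain and cathepsin L, and through them controls transglutaminase processing.

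The catalytic cysteine of these enzymes lies in a stretch that the transglutaminases share, shown here because it is the center of the reaction that gives the family its name. In each line below the codon of that cysteine is in capitals within 39 bases of the coding sequence, read 5′ to 3′ from the GENCODE transcripts of GRCm38. The last line gives the corresponding window of *Casp14*, a cysteine protease of another family.
*Tgm1*: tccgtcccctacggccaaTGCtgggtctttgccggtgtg
*Tgm2*: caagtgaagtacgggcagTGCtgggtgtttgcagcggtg
*Tgm3*: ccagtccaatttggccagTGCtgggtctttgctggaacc
*Tgm5*: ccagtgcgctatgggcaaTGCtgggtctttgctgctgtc
*Casp14*: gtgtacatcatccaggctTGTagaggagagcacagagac
The cysteine is codon 376 of 815 in *Tgm1*, 277 of 686 in *Tgm2*, 273 of 693 in *Tgm3* and 283 of 724 in *Tgm5*. In *Casp14* it is codon 136 of 257. *Tgm1* and *Tgm5* were the closest pair, with 9 of the 39 bases different, and *Tgm2* and *Tgm3* the most distant, with 14. No pair of these windows was identical.

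*Nanog*, the induced gene, had 2.70, 2.84, 12.7 and 3.34 FPKM in CTR 1 to CTR 4 and 36.9, 57.4 and 66.9 FPKM in TG 1 to TG 3, with no overlap between groups. Depth inferred from the error intervals in the tables corresponded to 10077008 to 15711400 reads, with CTR 3 and TG 1 the deepest. Papilloma TG 3 stood apart. Its median FPKM over all genes was 1.14, against 0.539 to 0.673 in the other 6, and its summed FPKM of 6 skeletal muscle markers was 581, against at most 4.67 in the others. The defining epithelial markers were present in every papilloma, with *Krt14* at 4717 to 10937 FPKM and *Krt5* at 942 to 1783 FPKM. In RNA from whole papillomas, fewer cells of one type and less RNA per cell cannot be told apart, and this holds for every value below. Results of the members that rest on TG 3 are therefore given with and without it.

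No member was called different between TG and CTR after adjustment for all tested genes. With limma, 0 of the 10 reached an adjusted p under 0.05, and neither did any of the 12299 tested genes (0%). The induced *Nanog* was not called either, with a log2 difference of 3.45 (SE 0.48, adjusted p = 0.4 from limma). A missing call therefore does not show equal levels. The study's own Cufflinks test of these papillomas lists *Nanog*, *Tgm2* and the involucrin gene *Ivl* as higher in TG after adjustment, so calls differed between methods. Before adjustment in limma, 1 member (*Tgm5*) was higher in TG at p under 0.05, against 4.86% of all tested genes, and 0 members were lower, against 1.96%. Those shares stand for 598 genes higher and 241 lower, and the split turned to 209 higher and 388 lower after centring on keratinocyte reference genes and to 403 and 551 after quantile normalization. 1 member, again *Tgm5*, had TG values that were all above the CTR values, against 4.93% of tested genes, and 0 had all TG values below, against 2.23%. These shares put the count of 1 in 10 members close to the background. Over the members, 8 differences were above 0 and 2 below, with a median log2 difference of 0.25, and the median over all tested genes was 0.06. That tally was 6 and 4 with upper-quartile scaling and 5 and 5 with keratinocyte centring. In each tally *Tgm2* counts above 0, and its sign is not independent of its passing the minimum through TG values.

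**Figure D1:**
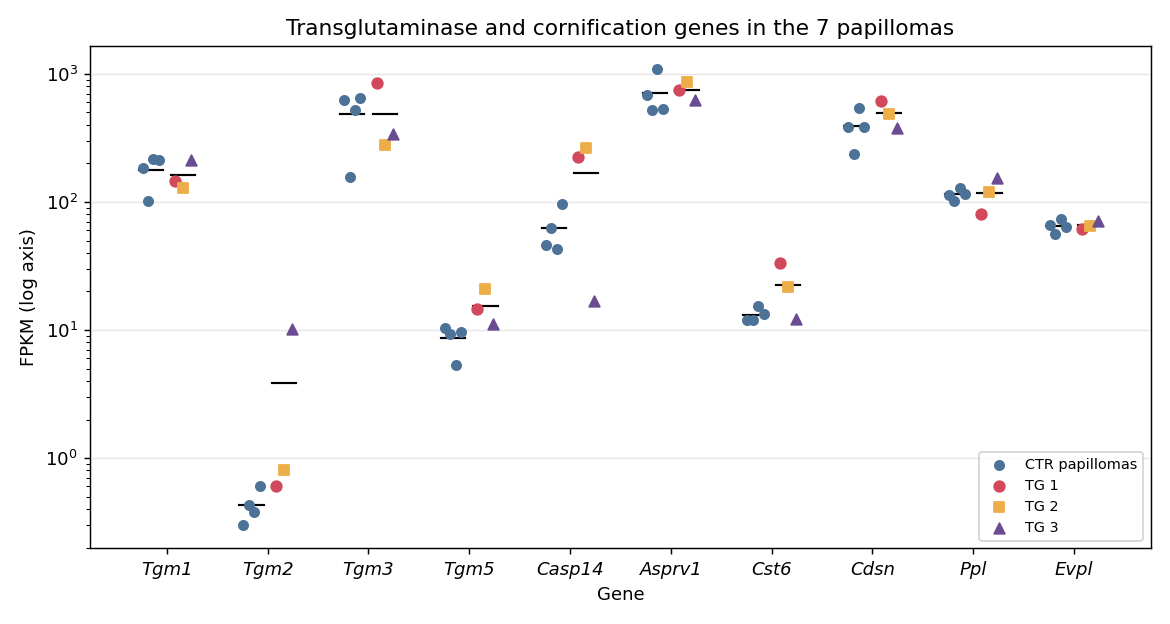
FPKM of each gene on a log axis, with 1 point per papilloma (blue circles for the 4 CTR papillomas, separate symbols for TG 1, TG 2 and TG 3) and black lines at the group means. *Tgm5* is the gene whose groups do not overlap, *Casp14* has its highest values in TG 1 and TG 2 and its lowest, 17.0 FPKM, in TG 3, and *Tgm2* reaches 10.2 FPKM in TG 3 alone.

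The TG papillomas were not alike. TG 1 exceeded every CTR papilloma for 5 members and TG 2 for 4, while 22.5% and 21.4% of all tested genes did so. In TG 3 it was 3 members, against 47.0% of all tested genes. The median log2 difference of the members from the CTR mean was 0.49 in TG 1 and 0.37 in TG 2, where the median of all tested genes was -0.03 and -0.02. In TG 3 the members' median was 0.08 and that of all tested genes 0.24. Among the controls, CTR 2 held the lowest of the 7 values for 5 members, against 30.2% of all tested genes.

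**Figure D2:**
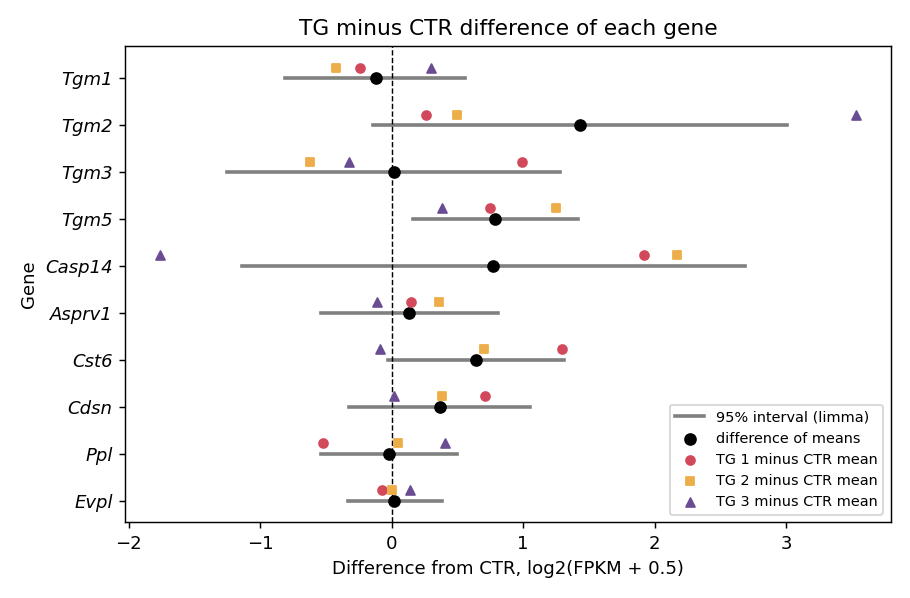
Difference from CTR on the log2(FPKM + 0.5) scale: black points with grey bars give the TG minus CTR difference and its 95% interval from limma, and colored symbols give each TG papilloma minus the CTR mean. The interval lies above 0 for *Tgm5* alone (0.16 to 1.42), and for *Casp14* the symbols run from -1.76 in TG 3 to 2.17 in TG 2.

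*Tgm5*, on chromosome 2 from 121046111 to 121085759 (GRCm38), encodes an envelope transglutaminase of the upper epidermis whose loss in humans causes peeling of acral skin. It had 10.4, 9.33, 5.37 and 9.71 FPKM in CTR 1 to CTR 4 and 14.6, 20.8 and 11.1 FPKM in TG 1 to TG 3. Every TG value lay above every CTR value, although TG 3 exceeded the highest control, CTR 1, by a small margin, and the error intervals that Cufflinks gave these 2 estimates, reaching up to 11.5 in CTR 1 and up to 12.2 in TG 3, overlapped. The means were 15.5 FPKM in TG and 8.71 ± 2.27 FPKM in CTR (SD, n = 4), a log2 difference of 0.79 (SE 0.28). The unadjusted p was 0.0192 in limma and 0.0286 in an exact permutation test, the smallest that 4 against 3 papillomas allow, and the adjusted p was 0.687. Its groups overlapped after upper-quartile scaling and after quantile normalization, with differences of 0.73 and 0.71, and in both settings *Tgm2* was then the member without overlap. Without TG 3 the difference was 1.00 (adjusted p = 0.243).

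The promoter of *Tgm5* is printed because this was the member whose groups did not overlap, and that of *Tgm3* because it had the highest level in the family. Each line gives 250 bases before and 50 after a transcription start in RefSeq (GRCm38.p6), for *Tgm5* chr2:121085792-121086091 on the minus strand and for *Tgm3* chr2:130012090-130012389 on the plus strand.
*Tgm5*: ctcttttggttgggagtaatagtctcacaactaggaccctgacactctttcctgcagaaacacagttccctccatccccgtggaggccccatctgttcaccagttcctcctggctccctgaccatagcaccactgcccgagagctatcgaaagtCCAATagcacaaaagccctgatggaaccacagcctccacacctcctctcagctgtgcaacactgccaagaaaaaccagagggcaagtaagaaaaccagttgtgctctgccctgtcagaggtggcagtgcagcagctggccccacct
*Tgm3*: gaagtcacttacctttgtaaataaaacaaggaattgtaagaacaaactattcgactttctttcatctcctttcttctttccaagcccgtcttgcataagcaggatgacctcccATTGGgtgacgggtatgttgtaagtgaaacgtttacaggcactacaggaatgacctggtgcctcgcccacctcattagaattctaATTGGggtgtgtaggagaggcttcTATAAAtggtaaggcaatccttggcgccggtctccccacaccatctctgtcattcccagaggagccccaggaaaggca
Capitals mark matches to motifs that were searched on both strands. The letters were TATAAA for the TATA box and GGGCGG for the GC box. For the CCAAT box they were those of its name, which read ATTGG on the opposite strand. The AP-1 site was searched as TGANTCA. For NANOG the homeodomain core TAATGG was used. No matches overlapped. *Tgm3* held a TATA box at position -28 and CCAAT boxes at -137 and -52, counted from the transcription start, and *Tgm5* a CCAAT box at -96. Of 32851 mouse promoters of that length, 13.6% held the TATA letters, 35.7% the GC box letters, 37.4% the CCAAT letters, 7.81% the AP-1 letters and 7.73% the homeodomain letters. A match is a description of the letters and not of binding.

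*Tgm3* (chromosome 2, 130012374 to 130050399), whose product links envelope proteins late in differentiation and in the hair follicle, was the most abundant transglutaminase. It had 622, 157, 521 and 650 FPKM in CTR 1 to CTR 4 and 846, 277 and 342 FPKM in TG 1 to TG 3. The highest value was in TG 1 and the lowest in CTR 2, and the means of 487 ± 227 FPKM in CTR (SD, n = 4) and 488 ± 311 FPKM in TG (SD, n = 3) were nearly equal. The log2 difference was 0.02 with a 95% interval of -1.25 to 1.28 (adjusted p = 0.998), so a difference of up to that size in either direction could not be told from the spread. Its sign turned under upper-quartile scaling (-0.05), quantile normalization (-0.03), keratinocyte centring (-0.14) and without CTR 2 (-0.46).

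*Tgm1* (chromosome 14, 55700009 to 55713492) encodes the membrane-bound envelope enzyme whose loss causes lamellar ichthyosis. Its level was 185, 102, 217 and 212 FPKM in CTR 1 to CTR 4 and 145, 129 and 211 FPKM in TG 1 to TG 3, so that every TG value fell within the CTR range. The log2 difference was -0.12 (SE 0.30, adjusted p = 0.974). By sequence, 4.51% of its 40-base windows also occur in an antisense transcript, Gm49067.

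*Tgm2* (chromosome 2, 158116405 to 158146392) was near the lower limit of what was measured in 6 papillomas, with 0.298, 0.432, 0.376 and 0.608 FPKM in CTR 1 to CTR 4 and 0.607 and 0.807 FPKM in TG 1 and TG 2. In TG 3 it was 10.2 FPKM, 23.7 times the CTR mean of 0.429 FPKM. The estimates correspond to 20 to 60 reads in those 6 papillomas and 589 in TG 3. The log2 difference of 1.43 (SE 0.70, adjusted p = 0.784) became 0.38 (SE 0.22) without TG 3. Because *Tgm2* passed the minimum through its TG values, the sign of its difference is not independent of that selection. The groups, which overlapped by CTR 4 and TG 1 alone, no longer did so after upper-quartile scaling or quantile normalization. By sequence, 19.4% of the 40-base windows of *Tgm2* are shared with the antisense transcript Gm20412 and the neighbor *Rprd1b*, and the strand setting of the counting is not given in the sources used here. *Rprd1b* itself had 6.10 to 8.53 FPKM in CTR and 6.87 to 8.93 FPKM in TG papillomas.

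TG 3 also held the highest marker levels of other cell types. Summed FPKM of 6 fibroblast markers was 73.5 to 129 in CTR papillomas and 88.9, 86.3 and 678 in TG 1 to TG 3, with all 6 genes highest in TG 3, as were 41.1% of all tested genes. For 6 endothelial markers the sum was 7.86 to 13.6 in CTR and 19.6, 10.9 and 29.7 in TG 1 to TG 3, and 5 of the 6 were highest in TG 3. The 6 immune cell markers summed to 46.8 to 79.5 in CTR and to 68.5, 72.5 and 181 in TG 1 to TG 3, again with 5 highest in TG 3. All 6 skeletal muscle genes were highest there too, including *Acta1* at 251 FPKM against 0.162 to 1.41 elsewhere. The adipocyte sum, 1374 to 3228 in CTR and 1545, 2269 and 1772 in TG, consisted mostly of *Fabp4*, and 4 of its 6 genes were listed at 0 in all CTR papillomas. The 5 adipocyte genes apart from *Fabp4* were highest in TG 3, with *Car3* at 86.5 FPKM there and at most 0.184 in the others. The hair list, 11 genes, summed to 3.47 to 11.5 in CTR and 10.7, 7.58 and 37.3 in TG. The part of these cells in the *Tgm2* level was not tested.

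**Figure D3:**
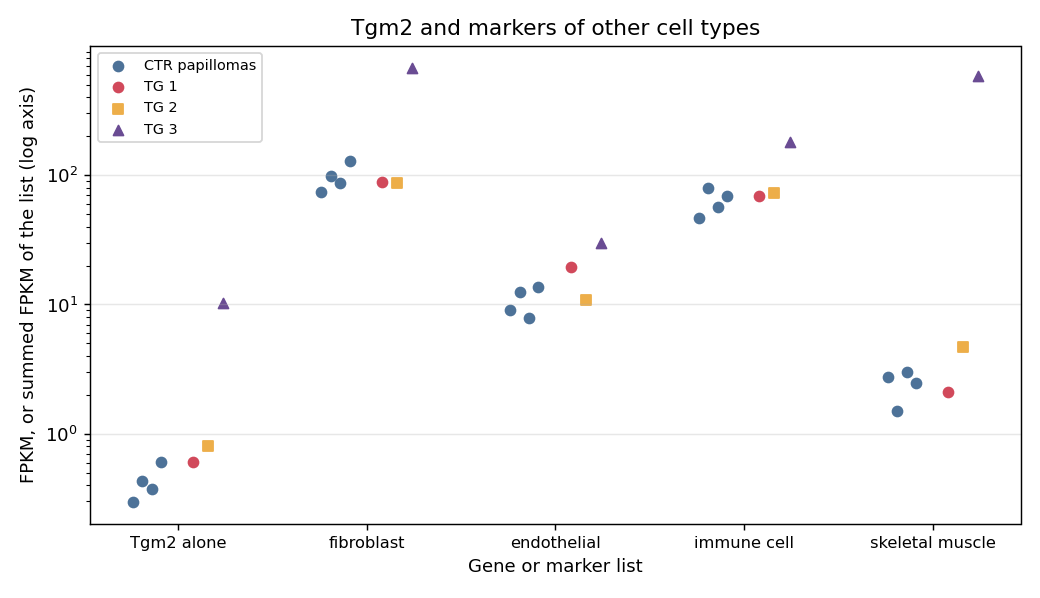
*Tgm2* FPKM and summed FPKM of 4 marker lists of other cell types, on a log axis, with 1 point per papilloma (blue circles for CTR). TG 3 has the highest value in all 5 columns, 10.2 FPKM for *Tgm2* and 678 summed FPKM for the fibroblast list.

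As shares of the summed FPKM of the 4 transglutaminases, which do not depend on library scaling, *Tgm3* took 76.0, 58.4, 70.1 and 74.5% in CTR 1 to CTR 4 and 84.1, 64.9 and 59.5% in TG 1 to TG 3. *Tgm1* took 22.7, 38.0, 29.1 and 24.3% in CTR and 14.4, 30.1 and 36.8% in TG. *Tgm3* was the largest share in all 7 papillomas. *Tgm5* took 1.28, 3.47, 0.722 and 1.11% in CTR and 1.45, 4.86 and 1.94% in TG, and CTR 2 with its low sum of 269 FPKM lay inside the TG range. The share of *Tgm2* was 0.0365 to 0.161% in CTR papillomas and 0.0603, 0.189 and 1.77% in TG 1 to TG 3, a difference of 0.595 percentage points that was 0.0452 without TG 3. For none of the 4 shares did the groups differ by more than their spread. The p of the exact permutation tests (2-sided) ran from 0.0857 for *Tgm2* to 0.971 for *Tgm3*, and the smallest p adjusted over the 4 was 0.343. The summed level itself was 676 ± 276 FPKM in CTR (SD, n = 4) and 669 ± 301 FPKM in TG (SD, n = 3).

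**Figure D4:**
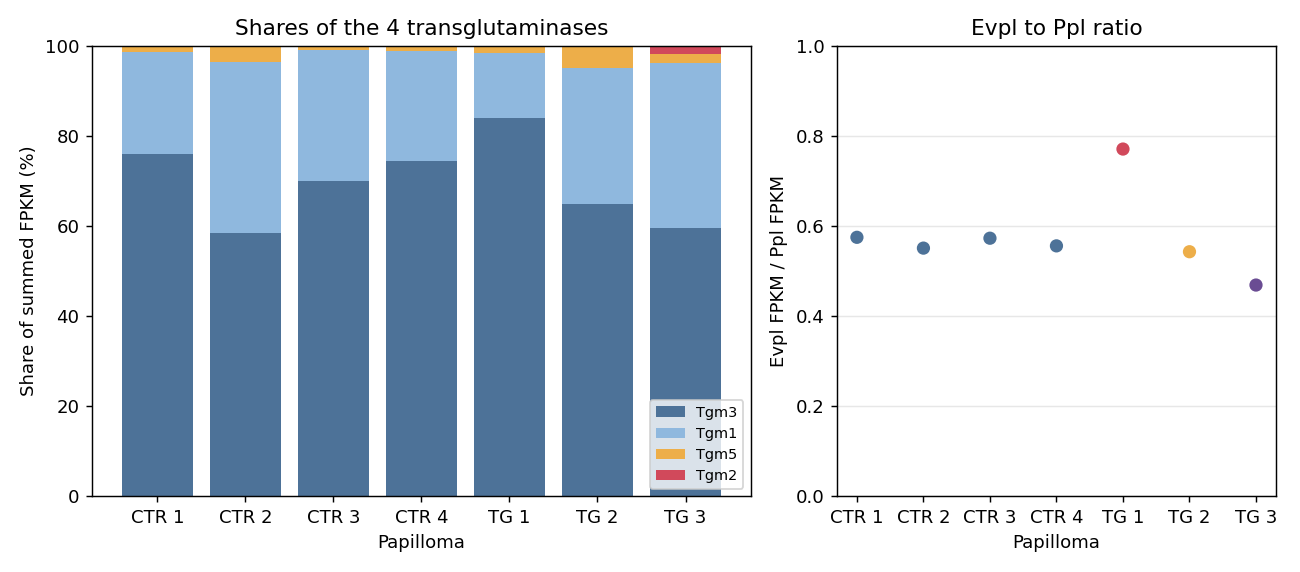
Left, stacked bars of the share of each transglutaminase in their summed FPKM, in percent, for each papilloma. Right, the *Evpl* to *Ppl* FPKM ratio of each papilloma, with CTR papillomas between 0.551 and 0.575 and TG papillomas between 0.469 and 0.771.

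*Casp14* (chromosome 10, 78711995 to 78718293) encodes a caspase found in the granular and cornified layers, where it takes part in filaggrin breakdown. It had 46.4, 62.3, 42.8 and 97.2 FPKM in CTR 1 to CTR 4 and 224, 266 and 17.0 FPKM in TG 1 to TG 3. TG 1 and TG 2 were 3.60 and 4.28 times the CTR mean, and TG 3 was 0.273 times that mean and the lowest of all 7. The log2 difference over all papillomas was 0.77 with a 95% interval of -1.14 to 2.69 (adjusted p = 0.920). Without TG 3 it was 2.04 (SE 0.32, adjusted p = 0.0662), and with only the papillomas of lower depth, which leave out TG 1 and CTR 3, it was 0.05 (SE 1.04).

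Its RefSeq promoter, chr10:78718244-78718543 on the minus strand, is printed because *Casp14* had the widest range among TG papillomas of the members apart from *Tgm2*.
*Casp14*: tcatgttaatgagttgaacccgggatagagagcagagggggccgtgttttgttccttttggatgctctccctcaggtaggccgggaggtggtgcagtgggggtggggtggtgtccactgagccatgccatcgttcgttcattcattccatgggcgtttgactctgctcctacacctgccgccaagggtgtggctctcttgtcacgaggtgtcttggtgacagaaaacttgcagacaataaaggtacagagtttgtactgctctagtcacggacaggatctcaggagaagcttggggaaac
None of the motif letters listed above occur in this window, which says nothing about other stretches of the locus. RefSeq promoters were at hand for 6 of the 10 genes, and those of *Tgm1*, *Asprv1* and *Cdsn* are not printed. *Asprv1* held a GC box at -38 and a CCAAT box at -72. *Tgm1* has 2 starts in the table, one with GC boxes at -136 and -12 and one with a CCAAT box at -174. The promoters of both *Cdsn* starts held none of the motifs.

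*Cst6* (chromosome 19, 5344705 to 5349574), the cystatin M/E gene, had 11.9, 12.0, 15.5 and 13.3 FPKM in CTR 1 to CTR 4 and 33.1, 21.6 and 12.3 FPKM in TG 1 to TG 3. The controls were tight, with a coefficient of variation of 12.7%, TG 1 and TG 2 lay above all of them, and TG 3 lay among them. The log2 difference was 0.64 (SE 0.29, adjusted p = 0.760) and 1.00 without TG 3 (SE 0.22, adjusted p = 0.133). Of the proteases it inhibits, legumain (*Lgmn*) had 6.34 to 19.7 FPKM in CTR and 12.5, 10.3 and 22.5 FPKM in TG 1 to TG 3, and cathepsin L (*Ctsl*) 121 to 197 and 123, 160 and 173 FPKM.

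*Asprv1* (chromosome 6, 86628174 to 86629704), the protease gene, had the highest mean FPKM of the 10 in CTR and in TG. *Tgm3* lay above it in CTR 4 and TG 1. *Asprv1* measured 679, 525, 1097 and 534 FPKM in CTR 1 to CTR 4 and 749, 865 and 628 FPKM in TG 1 to TG 3, with all TG values inside the CTR range. The log2 difference was 0.13 with a 95% interval of -0.54 to 0.81 (adjusted p = 0.968), and it was -0.02 after keratinocyte centring.

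Without TG 3, 3 members had TG values above all CTR values (*Tgm5*, *Casp14* and *Cst6*), against 8.97% of the 11990 genes tested in that fit. The same papilloma had low levels of suprabasal keratins. *Krt10*, the early differentiation keratin, had 917 to 1440 FPKM in CTR papillomas and 3150, 3133 and 181 FPKM in TG 1 to TG 3, and its partner *Krt1* had 187 to 807 FPKM in CTR and 1517, 3309 and 133 FPKM in TG. *Calm4*, a calmodulin-like gene of the epidermis, was likewise lowest in TG 3, at 672 FPKM against 1157 to 2392 in CTR. The 7 suprabasal markers summed to 9322 to 13691 FPKM in CTR and to 17454, 16275 and 5075 FPKM in TG 1 to TG 3. Of the 7 genes, 5 were lowest in TG 3, against 9.38% of all tested genes. *Krt1*, *Krt10* and *Calm4* were the 3 of the 7 that lay above all controls in both TG 1 and TG 2, against 8.94% of all tested genes. *Krtdap* (4770 and 3666 FPKM there, 3841 to 6890 in CTR) and *Sbsn* (1344 and 1022, against 566 to 1797) did not. The 7 basal markers summed to 6634 to 9901 in CTR and 12956, 8945 and 6851 in TG 1 to TG 3. The part of the suprabasal level in the *Casp14* and *Cst6* values was not tested.

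**Figure D5:**
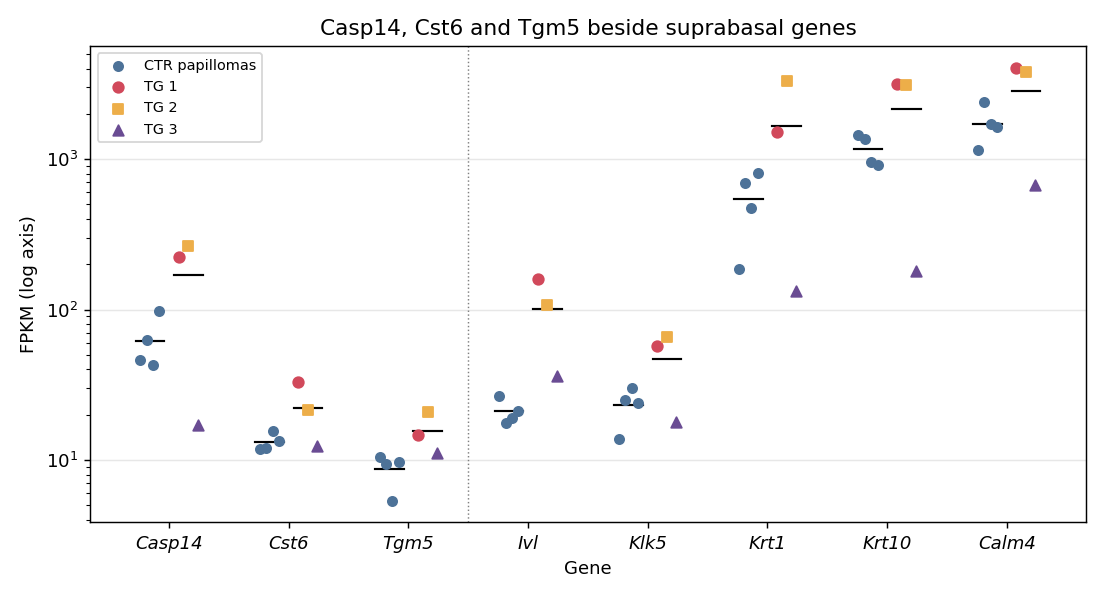
FPKM on a log axis of *Casp14*, *Cst6* and *Tgm5* (left of the dotted line) and of *Ivl*, *Klk5*, *Krt1*, *Krt10* and *Calm4* (right), with 1 point per papilloma and black lines at the group means. These 8 genes were picked after their values were seen. In all 8, TG 1 and TG 2 lie above the 4 CTR papillomas, and TG 3 is below them for *Casp14*, *Krt1*, *Krt10* and *Calm4*.

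In CTR papillomas the plakin genes varied least, with coefficients of variation of 9.57% for *Ppl* and 11.2% for *Evpl*. *Ppl* (chromosome 16, 5086291 to 5132481), which encodes periplakin, had 114, 102, 129 and 115 FPKM in CTR 1 to CTR 4 and 80.1, 119 and 153 FPKM in TG 1 to TG 3. TG 1 was below and TG 3 above all controls, and the log2 difference was -0.02 (95% interval -0.54 to 0.50, adjusted p = 0.995). *Evpl* (chromosome 11, 116220559 to 116238091), which encodes envoplakin, had 65.5, 56.5, 74.2 and 64.1 FPKM in CTR and 61.7, 64.8 and 71.6 FPKM in TG, all within the CTR range. Its log2 difference of 0.02 (adjusted p = 0.992) had the narrowest interval of the members, -0.33 to 0.38, and was -0.04 with upper-quartile scaling and -0.13 with keratinocyte centring.

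Envoplakin and periplakin form heterodimers. Within each papilloma, the ratio of *Evpl* to *Ppl* FPKM was 0.575, 0.551, 0.573 and 0.556 in CTR 1 to CTR 4 and 0.771, 0.543 and 0.469 in TG 1 to TG 3. The CTR ratios kept within a range of 0.551 to 0.575, and the TG ratios lay on both sides of it, TG 1 above and TG 2 and TG 3 below. The mean log2 ratio was 0.04 higher in TG, less than the spread (exact permutation p = 0.914, 2-sided), and without TG 1 the difference was -0.16 (exact permutation p = 0.0667, the smallest for 4 against 2).

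*Cdsn* (chromosome 17, 35552128 to 35557180) encodes corneodesmosin, the adhesive protein of corneodesmosomes. It had 387, 238, 546 and 386 FPKM in CTR 1 to CTR 4 and 610, 485 and 378 FPKM in TG 1 to TG 3. TG 1 exceeded all controls, TG 2 all but CTR 3, and TG 3 was close to CTR 1 and CTR 4. The log2 difference was 0.37 (SE 0.30, adjusted p = 0.866) and 0.54 without TG 3 (adjusted p = 0.689).

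FPKM is scaled to transcript length, so levels can be set beside each other between genes. In CTR papillomas the order of mean FPKM was *Asprv1* (709), *Tgm3* (487), *Cdsn* (389), *Tgm1* (179), *Ppl* (115), *Evpl* (65.1), *Casp14* (62.2), *Cst6* (13.2), *Tgm5* (8.71) and *Tgm2* (0.429). The ranges over papillomas overlapped between *Asprv1* and *Tgm3*, *Tgm3* and *Cdsn*, *Tgm1* and *Ppl*, and *Evpl* and *Casp14*, so the order of those neighbors was not settled. In TG papillomas *Casp14* stood in the fourth place, at a mean of 169 FPKM, with a range of 17.0 to 266 that overlapped *Tgm1*, *Ppl*, *Evpl*, *Cst6* and *Tgm5*. *Cst6* and *Tgm5* held the eighth and ninth places there, with means of 22.3 and 15.5 FPKM and overlapping ranges. By mean FPKM in CTR, *Asprv1* lay at the 99.3rd percentile of tested genes and *Tgm2* at the 2.36th. The CTR mean of *Tgm2* lay below the minimum for testing, so few tested genes could rank lower.

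Other genes of the pathway were read from 4 lists. Of 24 tested cornified envelope substrates, 16 had differences above 0 and 8 below, with a median of 0.27. The smallest adjusted p was 0.538, and before adjustment 4 were higher and 1 lower at p under 0.05, beside 4.86% and 1.96% of all tested genes. *Ivl*, which encodes involucrin, a main early substrate of TGM1, had 26.8, 17.7, 18.9 and 21.2 FPKM in CTR 1 to CTR 4 and 159, 108 and 36.4 FPKM in TG 1 to TG 3. All TG values were above all CTR values, TG 3 by the least, with a log2 difference of 2.01 (SE 0.43, adjusted p = 0.538), and of 2.62 without TG 3 (adjusted p = 0.0148). *Sprr2d*, a small proline-rich substrate, also did not overlap, with 210 to 562 FPKM in CTR and 753, 961 and 898 FPKM in TG (log2 difference 1.27, adjusted p = 0.564). *Sprr3*, a substrate of mucosal and stressed epithelium, was lower in value in TG, with 1023 to 2642 FPKM in CTR and 153, 443 and 1576 FPKM in TG, and means of 2029 ± 756 FPKM (SD, n = 4) and 724 ± 752 FPKM (SD, n = 3), with an adjusted p of 0.687 from limma. *Cnfn*, which encodes cornifelin, had 1971 to 3823 FPKM in CTR and 1477, 1448 and 1786 FPKM in TG, with every TG value below every CTR value (log2 difference -0.61, adjusted p = 0.795). The most abundant substrate, *Krtdap*, had 3841 to 6890 FPKM in CTR and 4770, 3666 and 2689 FPKM in TG. In both TG 1 and TG 2, 9 of the 24 substrates lay above all controls, against 8.94% of all tested genes, and 7 of the 24 had their lowest value in TG 3, against 9.38%. *Flg* was not analysed here.

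Of 15 tested proteases, inhibitors and modifying enzymes that act with the members, 11 had differences above 0 and 4 below (median 0.12, smallest adjusted p 0.720). *Padi3*, a deiminase of filaggrin and hair proteins, was the 1 gene at an unadjusted p under 0.05 in limma (0.0430), beside 6.82% of all tested genes. It had 0.326 to 6.92 FPKM in CTR and 7.15, 2.59 and 12.6 FPKM in TG, with overlap between groups. *Klk5*, a kallikrein that cleaves corneodesmosin, had 13.7 to 29.9 FPKM in CTR and 57.4, 65.2 and 17.9 FPKM in TG 1 to TG 3, above all controls in TG 1 and TG 2 and among them in TG 3. *Spink5*, the kallikrein inhibitor, had 277 to 386 FPKM in CTR and 356, 186 and 329 FPKM in TG, and *Spint1*, an inhibitor of matriptase, 54.4 to 62.3 and 41.7, 45.2 and 63.1 FPKM. The most abundant of this list, *Ctsd*, had 1014 to 1385 FPKM in CTR and 807, 872 and 1711 FPKM in TG.

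Among 11 adhesion genes of the upper epidermis and their regulators, 7 differences were above 0 and 4 below (median 0.16). At an unadjusted p under 0.05 in limma 0 passed, beside 6.82% of all tested genes. *Dsg1a*, which encodes a desmoglein of the upper layers, had 58.6 to 78.9 FPKM in CTR and 106, 158 and 69.0 FPKM in TG 1 to TG 3, and *Dsc1* had 49.4 to 153 and 126, 208 and 103 FPKM. *Grhl3* and *Ovol1*, transcription factors of epidermal differentiation, had log2 differences of -0.22 and -0.29, both with TG values inside the CTR range, and *Perp*, the most abundant, one of 0.16. Of the other transglutaminase family genes, *Tgm6* (1.21 to 6.49 FPKM in CTR, 2.03 to 6.04 in TG) and *Tgm4* (2.99 to 3.44 and 2.64 to 3.55) reached the minimum, with log2 differences of 0.18 and -0.05. *F13a1*, *Tgm7* and *Epb4.2* were below it.

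The mean of the members' log2 values, each centred on its own mean, was -0.14, -0.52, -0.04 and 0.01 in CTR 1 to CTR 4 and 0.35, 0.26 and 0.08 in TG 1 to TG 3. Among 12289 other tested genes, the 5 with the most similar profile over the 7 papillomas were *Fam83a* (Pearson r = 0.98) and *Fam40a*, *Mtap7d1*, *Elfn1* and *Tle3* (r = 0.97 each). *Fam83a* had 10.9, 7.57, 10.9 and 11.9 FPKM in CTR 1 to CTR 4 and 17.3, 13.9 and 12.9 FPKM in TG 1 to TG 3, with its lowest value in CTR 2 as in the members' mean. The correlations describe the closest of many genes over 7 points that share libraries, with no test.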

How the data were processed

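Papillomas of 4 CTR and 3 TG mice were analysed, 1 library each, grouped by the genotype in the labels. PolyA+ RNA was sequenced as single reads of 40 bases from a stranded kit. Per the submitters' processing notes and methods, TopHat2 2.0.4, Bowtie 0.12.7, SAMtools 0.1.16 and Cufflinks 1.3.0 were used with GRCm38/mm10. The deposited values are FPKM per gene estimated by the authors with Cufflinks, with error intervals in the same unit and no read counts. Depth was inferred from those intervals, which cover counting error only, and is approximate.

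From these, entries of a symbol were summed (240 of 23284 symbols) and 162 symbols with a failed estimate in any papilloma were left out. Genes whose mean reached 0.5 FPKM entered limma 3.58.1 (R 4.3.3) on log2(FPKM + 0.5) with a variance trend, and p-values were Benjamini-Hochberg adjusted over 12299 genes. Fold changes on this scale understate those of low genes such as *Tgm2*. Single values were tested with 2-sided exact permutation over 35 assignments. The limma step was tested on simulated data. Sequences came from GENCODE transcripts and RefSeq promoters.

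The members and gene lists were chosen with earlier results of these data known. The text names all 10 members, *Nanog*, the 2 genes of smallest p in each direction and the most abundant gene of each pathway list, the 5 genes of most similar profile, and markers. *Lgmn*, *Ctsl*, *Calm4*, *Krt1*, *Krt5*, *Krt10*, *Krt14* and *Rprd1b* were added after their values were seen. 20 alternative settings covered the pseudocount, filter, scaling, limma options, a replicate block, depth and each left-out papilloma.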

Additional observations from a re-analysis of the deposited data

Results flagged for a closer look

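In 10 groups of CTR values, 1 per member, a single papilloma lay apart from the other CTR papillomas in 2. The measure was Dixon's ratio of the gap to the range, with the 95% critical value for 4 samples. *Tgm3* had its lowest CTR value, 157 FPKM, in CTR 2 (ratio 0.8446), and *Tgm5* its lowest, 5.37 FPKM, in CTR 3 (ratio 0.8292, just past the critical value). Chance marks about 1 group in 20. Without CTR 2 the *Tgm3* log2 difference was -0.46.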

How the results depend on the processing

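The 20 alternatives gave 199 values for the members' log2 differences. 181 kept the sign and 18 turned it, and none reached an adjusted p under 0.05. Part of the 181 was fixed in advance. The settings of the filter, of the variance trend and robust moderation in limma, and of the highest entry of a symbol could not move a member's difference. *Tgm2* (0.38 to 2.02), *Tgm5* (0.56 to 1.14), *Casp14* (0.05 to 2.04), *Cst6* (0.30 to 1.00) and *Cdsn* (0.15 to 0.55) stayed above 0, and the smallest adjusted p were 0.0609 for *Tgm5* with quality weights and 0.0662 for *Casp14* without TG 3. The sign of *Tgm2* is not independent of its passing the minimum through its TG values. *Tgm3* turned with upper-quartile scaling (-0.05), quantile normalization (-0.03), keratinocyte centring (-0.14), quality weights (-0.66) and papillomas of lower depth (-0.37). *Evpl* turned with upper-quartile scaling (-0.04), keratinocyte centring (-0.13) and quality weights (-0.03), *Asprv1* with keratinocyte centring (-0.02), and *Tgm1* (0.05) and *Ppl* (0.29) with papillomas of lower depth. With 1 papilloma left out, the log2 difference ran from -0.37 to 0.03 for *Tgm1*, -0.47 to 0.33 for *Tgm3*, -0.23 to 0.23 for *Ppl* and -0.04 to 0.09 for *Evpl*. The cause of these turns was not tested. Keratinocyte centring moved the median of all genes from 0.06 to -0.09.

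With quality weights, which gave TG 3 the lowest weight, 49 genes higher in TG and 36 lower passed the adjusted threshold of 0.05, and 19 of the 52 tested pathway genes passed before adjustment against 6, while the share of all tested genes that did so went from 6.82% to 19.6%. With papillomas of lower depth 1 gene was higher, 3 members had groups that did not overlap (23.1% of all tested genes), the *Evpl* to *Ppl* log2 ratio differed by -0.15 and the *Tgm1* share by 5.09 percentage points. With 1 papilloma left out, the genes higher numbered 0 to 9 and those lower 0 to 8, with the most without TG 3. Members without overlap were 1 to 3, 3 without TG 3 (1075 higher and 1083 lower of all 11990 tested genes), 2 without CTR 4 (11.3% of tested genes) and 2 without TG 1 (20.3%). Pathway genes at an unadjusted p under 0.05 numbered 4 to 13, beside 4.03% to 9.58% of all tested genes. The highest of both, 13 of 52 and 9.58%, came without TG 3. The ratio ran from -0.16 without TG 1 to 0.20 without TG 3, the *Tgm1* share difference from -6.28 to 4.88 and that of *Tgm3* from -7.54 to 4.72 percentage points.

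The labels number papillomas in both groups, but same-numbered papillomas did not deviate together (correlations of -0.186, 0.0431 and -0.146). With the replicate block, 0 genes passed the adjusted threshold. Overlap is read from values that the block does not change. The count of 1 member without overlap, beside 7.16% of all tested genes, was therefore fixed in advance. With the block, 7 of 52 pathway genes passed before adjustment, beside 5.49% of all tested genes. The low read numbers of *Tgm2* limit its values to intervals of up to 45.0% to either side.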
